A study of Mus musculus with 6 samples.

Results

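The regions described here are the COUP-TFII binding sites that were called in male but not in female mesonephroi and that lie away from gene ends. COUP-TFII is the product of Nr2f2 and belongs to the orphan nuclear receptors, those with no established natural ligand. It was mapped by chromatin immunoprecipitation and sequencing (ChIP-seq, which recovers the DNA bound by a protein with an antibody to it) on pooled mesonephroi of CD-1 mouse embryos at E14.5, with 2 XX samples, 2 XY samples and 2 samples of input pooled from both sexes. The authors deposited 1 list of peaks for each sex, with 11175 peaks for XX and 9846 for XY. A peak is a 300 bp interval on the mm10 build and carries no height or score. Of the XY peaks, 2363 shared no base with any XX peak, and 2311 of these lay on autosomes. The members were selected on these called positions: their centre had to lie more than 1 kb from both ends of every annotated gene, which left 921, and at most 100 kb from, or inside, the nearest protein-coding gene. This gave 805 XY-only distal peaks, and 116 peaks farther from genes were left out. The same position rules gave 1800 XX-only distal peaks and 2071 distal peaks found in both lists (shared distal peaks).

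That a member is in the XY list and not in the XX list is the rule and not a result. The number of reads behind either list is unknown, and whether a missing peak was unbound or under the authors' threshold was not tested. Each list stands for both samples of a sex, so no value has a spread between replicates, and the tests below compare lists of peaks, not animals. The mesonephroi were pooled and hold several cell types, so fewer cells of a type and less binding per cell cannot be told apart. Peak positions alone do not allow a check of the tissue against its markers. The Y chromosome had 2 peaks in the XY list and 0 in the XX list. A line of the labels' extraction protocol names RUNX1 and fetal ovaries, whereas the titles, tissue, antibody and design name COUP-TFII and mesonephroi, and the latter were followed.

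As background, COUP-TFII binds DNA as a dimer at repeats of the element AGGTCA and can repress or activate transcription, often by recruiting cofactors or by competing with other nuclear receptors for the same sites. The mesonephros lies beside the fetal gonad and holds the Wolffian and Müllerian ducts in a mesenchyme that is rich in COUP-TFII. At this stage the duct fates separate: androgens from the testis maintain the Wolffian duct in males, and in females that duct regresses, a process for which mesenchymal COUP-TFII is known to be needed. Binding sites far from gene ends are often enhancers, which act on genes at a distance, so the nearest gene named below is a label of place and need not be the gene a site acts on.

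A subset of the male-only sites coincided with start sites inside genes. A start window here is the stretch from 250 bases before to 50 bases after an annotated RefSeq transcript start (GRCm38.p6, the assembly of mm10), and an internal start is one inside its gene, away from the outer end. Of the 27025 genes with a listed start, 4163 had 2 or more windows. Whether an internal start at a member was the only one listed for its gene is not given here. Of the 805 members, 70 overlapped such a window, each at a different gene and each in the gene it was assigned to. They lay at Egf (the ligand of the EGF receptor), Abl1 and Taok2 (kinases), Ank2 and Sptbn1 (the membrane skeleton), Stag1 (cohesin), Trp53bp1 (DNA repair), Palld (an actin scaffold) and others. At Rbpj (the DNA-binding partner of Notch), Fancm (DNA repair) and Igfbp4 (a secreted binder of IGFs) the peak reached only 9, 14 and 17 bp into the window. An XX peak lay within 1 kb of the members at Abl1, Taok2, Stag1 and Rbpj. These genes were chosen as examples after their values were seen. The overlap had a median of 143 bp, and 31 windows were covered by at least 150 bp. The starts lay a median of 5.70 kb into the gene, with 38 over 5 kb and 21 within 2 kb of the gene start.

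Sequence was at hand only for start windows, so these 70 windows, and not the whole peaks, were searched for the element that COUP-TFII binds. The median overlap of peak and window was 143 bp. Part of each peak was therefore not read, and part of each window lay outside the peak. The shares of windows below are thus not shares of bound sites. AGGTCA, read on both strands, was in 6 of the 70 windows (8.57%), against 13 of the 72 windows at XX-only distal peaks (18.1%), 46 of 297 at shared distal peaks (15.5%) and 16.3% of all 32851 windows of the same length. In 4 of the 6 it lay within the peak, at Myadm, Pkd2, Tnrc6b and Chp2. Myadm, Pkd2 and Tnrc6b had it before the start and are given with the 250 bases that precede it, 5′ to 3′ on the strand of the gene, and capitals mark AGGTCA or its complement TGACCT. Myadm encodes a membrane protein, Pkd2 the cilium channel polycystin-2, and Tnrc6b a protein of microRNA silencing. Myadm (chr7:3290305-3290554, plus strand), Pkd2 (chr5:104459207-104459456, plus strand) and Tnrc6b (chr15:80798360-80798609, plus strand) read:
Myadm: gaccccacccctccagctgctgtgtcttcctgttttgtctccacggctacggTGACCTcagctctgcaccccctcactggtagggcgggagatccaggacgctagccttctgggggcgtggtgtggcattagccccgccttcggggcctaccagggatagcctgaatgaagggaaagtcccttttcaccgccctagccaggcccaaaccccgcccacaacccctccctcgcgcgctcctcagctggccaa
Pkd2: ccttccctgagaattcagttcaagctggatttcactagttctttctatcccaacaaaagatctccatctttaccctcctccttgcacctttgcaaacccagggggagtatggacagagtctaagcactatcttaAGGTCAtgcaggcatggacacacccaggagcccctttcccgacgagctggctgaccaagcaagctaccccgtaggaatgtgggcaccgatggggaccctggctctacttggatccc
Tnrc6b: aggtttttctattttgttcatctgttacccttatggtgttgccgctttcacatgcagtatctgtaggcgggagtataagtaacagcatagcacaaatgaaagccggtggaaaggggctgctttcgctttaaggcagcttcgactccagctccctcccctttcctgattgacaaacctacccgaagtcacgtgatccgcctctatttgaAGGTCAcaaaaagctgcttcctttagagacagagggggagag

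The windows most fully covered by a member were at Prpsap1, a regulator of nucleotide synthesis (298 of 300 bp), and at Egf and Fbxo11 (296 bp each). Prpsap1 and Egf are shown because a member covers nearly the whole window, with an XX peak close by at Prpsap1 and none close by at Egf. Neither holds AGGTCA, so no base is in capitals. The Egf start lay 30.2 kb into the gene and 106 kb from the nearest XX peak. The Prpsap1 start lay 4.57 kb into the gene, and an XX peak lay 0.141 kb from the member. The 250 bases before the start of Prpsap1 (chr11:116490347-116490596, minus strand) and Egf (chr3:129725087-129725336, minus strand) read:
Prpsap1: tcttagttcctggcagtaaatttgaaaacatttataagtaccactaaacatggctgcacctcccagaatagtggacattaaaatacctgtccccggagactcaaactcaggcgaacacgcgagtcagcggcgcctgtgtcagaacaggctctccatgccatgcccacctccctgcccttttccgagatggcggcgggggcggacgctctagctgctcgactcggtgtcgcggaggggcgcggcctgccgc
Egf: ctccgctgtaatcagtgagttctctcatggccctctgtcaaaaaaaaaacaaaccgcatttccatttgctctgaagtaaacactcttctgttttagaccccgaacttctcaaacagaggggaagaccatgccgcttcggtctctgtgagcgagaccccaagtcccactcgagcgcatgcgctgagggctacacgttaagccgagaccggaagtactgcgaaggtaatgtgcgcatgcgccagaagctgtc

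The share of peaks on internal start windows set the members between the other sets. It was 8.70% of XY-only distal peaks (70 of 805, 95% exact interval 6.84 to 10.9), 4.0% of XX-only distal peaks (72 of 1800, 3.14 to 5.01) and 14.3% of shared distal peaks (297 of 2071, 12.9 to 15.9). The odds were 2.28 times as high for the members as for XX-only distal peaks (95% interval 1.60 to 3.26, adjusted p = 2.20e-05, two-sided Fisher's exact test with Benjamini-Hochberg adjustment over 9 tests, as for each adjusted p of a set comparison below). Against shared distal peaks the odds ratio was 0.569 (0.426 to 0.752, adjusted p = 1.32e-04 by Fisher's exact test). The measure was added after the start table had been seen. The difference from shared peaks missed the threshold for peaks over 5 kb from gene ends (6.10% against 9.76%, odds ratio 0.600, adjusted p = 0.0537 by Fisher's exact test). The windows at members had a median GC content of 62.7%, with 60% at XX-only peaks, 64.0% at shared peaks and 52.7% over all windows.

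No window at a member held a direct repeat of AGGTCA with 1 base between its copies, or AGAACA followed after 3 bases by TGTTCT, the arrangement that the androgen receptor binds. Both are rare, in 0.0396% and 0.00913% of all windows. The other motifs are given as the share of the 70 windows at members, then of windows at XX-only distal peaks, at shared distal peaks and of all windows. AGGGGGC, part of the CTCF core, was in 18.6%, 12.5%, 16.5% and 10.6%. GGAATG, bound by TEAD factors, was in 15.7%, 16.7%, 12.1% and 14.7%. AGATAA, the GATA element, was in 1.43%, 8.33%, 4.71% and 11.2%, and TAATTA, of homeobox factors, in 1.43%, 1.39%, 1.68% and 5.29%. TGTGGT (RUNX) was in 14.3%, 16.7%, 10.8% and 16.8%. CATCTG (an E-box of Twist type) was in 8.57%, 16.7%, 7.41% and 17.2%, and TGANTCA (AP-1) in 5.71%, 6.94%, 5.72% and 7.81%. For the CTCF part, the E-box and the GATA, homeobox and AP-1 elements, the share at shared peaks was nearer to that at members than the share of all windows was. For the TEAD and RUNX elements the share of all windows was the nearer of these. At members the GATA and homeobox elements were in 1 of 70 windows each, and AP-1 in 4. Each motif was searched on both strands. These shares are descriptions of windows that differ in GC content from the rest, and they were not tested.

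Most male-only distal sites lay within genes. Of the 805 members, 526 had their centre inside a protein-coding gene, a share of 65.3% (61.9 to 68.6). Examples are the sites in Meis1, Tln2, Ptch1 and Egf described below. This share was higher than among XX-only distal peaks, where 1034 of 1800 lay inside a gene (57.4%, 55.1 to 59.7, odds ratio 1.40, 1.17 to 1.67, adjusted p = 4.22e-04 by Fisher's exact test). Shared distal peaks had 64.9% inside genes, and the odds ratio of members to these was 1.02 (0.855 to 1.21, adjusted p = 0.862 by Fisher's exact test). The difference from XX-only peaks missed the threshold for peaks over 2.5 kb from gene ends (61.5% against 56.2%, adjusted p = 0.0789 by Fisher's exact test), for those over 5 kb away (62.1% against 57.4%, 0.163) and for genes within 10 kb (87.4% against 83.3%, 0.0694). The gene around a member had a median length of 103 kb over these sites, against 117 kb for XX-only and 86.3 kb for shared distal sites. All autosomal protein-coding genes had a median of 17.5 kb, with each gene counted once. The distance of over 1 kb from gene ends leaves little or no room inside short genes, and a median over sites counts a gene once per site. The contrast with all genes was therefore partly fixed by the rule.

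**Figure D1:**
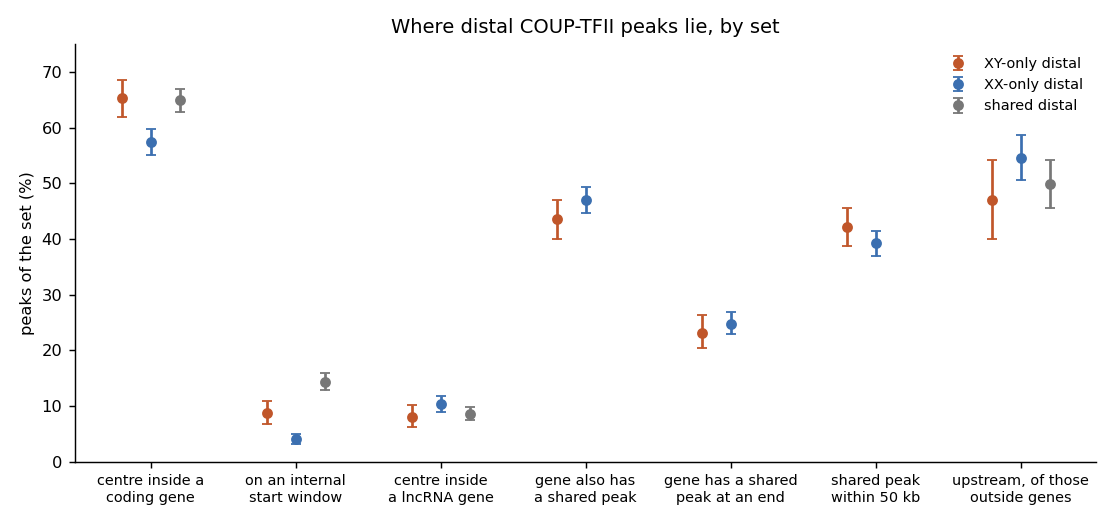
Share of peaks (%, vertical axis) with each property for XY-only, XX-only and shared distal peaks, where points are shares and bars are exact 95% intervals over peaks. The XY-only set is at 65.3% inside coding genes and 8.70% on internal start windows, and the XX-only set at 57.4% and 4.0%; shared peaks are not plotted for the 3 measures that are defined by shared peaks.

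The 279 members outside genes lay a median of 24.4 kb from the nearest gene, with 76 within 10 kb, 140 between 10 and 50 kb and 63 between 50 and 100 kb. For 202 of them the start table gave the strand of the gene. Of these, 95 lay upstream of the gene (47.0%, 40 to 54.2), as at Dock1, Igf2r and Spry2, and the others downstream, as at Nrp2, Fgfr2 and Hsd17b3. The upstream share of XX-only distal peaks was 54.6% (337 of 617, odds ratio 0.738, 0.529 to 1.03, adjusted p = 0.131 by Fisher's exact test). Inside long noncoding RNA genes lay 65 members (8.07%), against 10.3% of XX-only distal peaks (odds ratio 0.762, 0.558 to 1.03, adjusted p = 0.131 by Fisher's exact test). Neither difference passed the threshold, and the intervals allow an odds ratio between 0.529 and 1.03 for the former.

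Male-only distal sites were spread thinly over many genes. They fell to 748 nearest genes, 3.62% of the 20665 autosomal protein-coding genes, while XX-only distal peaks fell to 1559 (7.54%) and shared distal peaks to 1769 (8.56%). There were 696 genes with 1 member, 47 with 2 and 5 with 3, the most at any gene. The 5 were Meis1, Aff3, Dock1, Tln2 and Zfp438. An XX-only distal peak was also present at 201 of the 748 genes, which is 26.9% of the genes with a member and 12.9% of those with an XX-only distal peak. At 317 genes (42.4%) a shared peak was present too, and 301 (40.2%) were assigned no XX peak of any kind. The matching shares over all genes are not given here, so neither of these counts can be read as high or low.

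Meis1 encodes a homeobox factor of the TALE class, and all its 3 members lay in the 3′ part of the gene or beyond it. They stood 82.1 kb (chr11:18937390-18937689) and 92.2 kb (chr11:18927323-18927622) into the gene and 8.79 kb past its end (chr11:18871492-18871791). The shared peaks of Meis1 lay 7.66 kb before the start and 134 kb into the gene. The latter stood between the members, 13.8 kb from the one past the gene end, and no XX-only peak was assigned to Meis1. Its relative Meis2 had 1 member, 46.2 kb into the gene, beside 1 shared and 3 XX-only peaks.

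Dock1, which activates the GTPase Rac, and Tln2, a talin that ties integrins to actin, were the adhesion genes with 3 members. The Dock1 sites lay 30.8 kb and 7.27 kb upstream (chr7:134639724-134640023 and chr7:134663270-134663569) and 116 kb into the gene (chr7:134786513-134786812). The nearest XX peak was between 426 and 573 kb away from them, and the single shared peak of Dock1 lay 39.0 kb beyond its far end. The Tln2 sites were all inside the gene, and the one at chr9:67632703-67633002 lay 1.04 kb from an XX peak, whereas the others were 74.3 and 84.0 kb from one. Aff3, a nuclear protein of the AFF family, had members 2.35 and 3.42 kb into the gene and 36.6 kb upstream, and its 2 XX-only peaks lay deeper, at 48.0 and 132 kb. Zfp438, a zinc finger gene on chromosome 18, had its members 19.9, 38.5 and 65.3 kb outside the gene, with 1 shared peak at its end. No XX-only peak was assigned to Zfp438.

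Several genes with 2 members were assigned no XX peak, although such a peak could lie nearby (32.2 kb from a member at Ccn5). Among them were Cadps (vesicle release), Camk1d (a calcium-dependent kinase), Ccn5 (a secreted matrix-associated protein), Fat3 (a giant cadherin), Gcg (proglucagon), Mbp (myelin), Mdfi (an inhibitor of myogenic factors), Nrp2, Tmem178b and Usp29. Nrp2, whose receptor binds semaphorins and VEGF, had members 56.0 and 82.8 kb downstream (chr1:62874497-62874796 and chr1:62901322-62901621). Another XY-only peak lay 3.08 kb downstream of Nrp2 but within 1 kb of the end of another gene, so that it is no member. The Fat3 sites lay 1.21 kb and 349 kb into the gene, and the nearest XX peaks were 791 and 443 kb from them. Palld, an actin scaffold of smooth muscle and fibroblasts, had a pair of members 133 and 143 kb into the gene, of which the latter met an internal start, and 2 shared peaks at 263 and 311 kb.

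**Figure D2:**
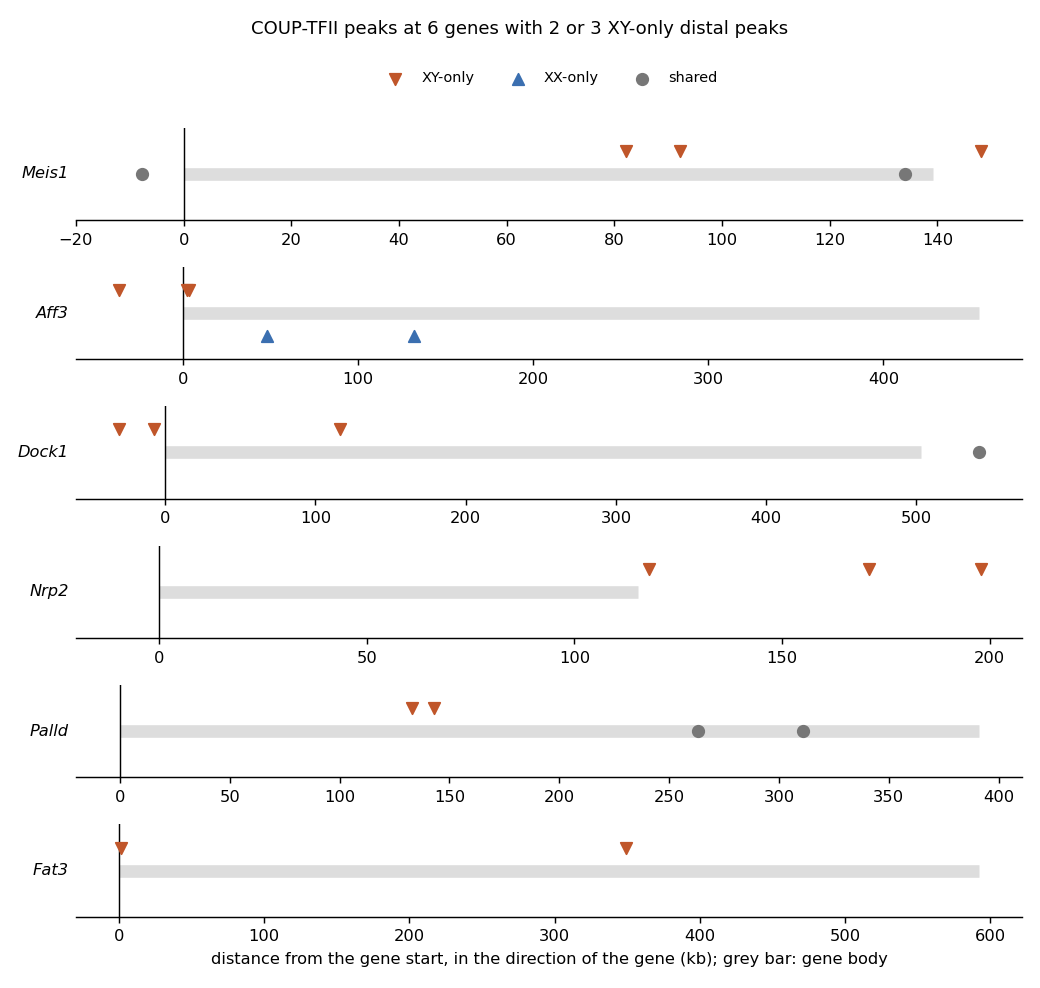
Peaks at Meis1, Aff3, Dock1, Nrp2, Palld and Fat3 by distance from the gene start in the direction of the gene (kb, horizontal axis, scale differing between genes), with the gene body as a grey bar, XY-only peaks as downward triangles, XX-only peaks as upward triangles and shared peaks as circles. The 3 members at Meis1 sit at 82.1, 92.2 and 148 kb, with a shared peak among them at 134 kb. No XX peak was assigned to Nrp2 or Fat3. The Nrp2 triangle at 118 kb is an XY-only peak that is not a member.

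Members seldom lay close to each other. Only 6 pairs of neighbouring members, 12 peaks in all, had centres within 10 kb. In 5 of the pairs, at Tmem178b, Ly86, Pcbd1, Gcg and Aff3, the centres were 733 to 1063 bp apart, and in the sixth, at Palld, 9720 bp. The pair at Pcbd1, a cofactor of HNF1 factors, lay 8.21 and 9.05 kb upstream, and the XX list had its own peaks at the gene start and 29.6 kb upstream.

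Some male-only sites were near misses of a female peak. The gap between a member and the nearest XX peak had a median of 37.4 kb. For 61 members (7.58%) it was at most 300 bp, for 53 more (6.58%) between 300 bp and 1 kb, and for only 14 (1.74%) between 1 and 3 kb. Within 300 bp, the XX neighbour was an XX-only peak for 55 members and a shared peak for 6, and within 1 kb for 76 and 38. Such neighbours were found at Zbtb46, a zinc finger repressor, whose 2 members lay 29 and 102 bp from XX peaks. They were also found at Rora, a nuclear receptor (120 bp), at Rbpj (84 bp) and at Axin2, an inhibitor and target of WNT signalling (587 bp). Of the members on internal start windows, 14 of 70 (20%) had an XX peak within 1 kb, and of the other members 100 of 735 (13.6%). Of XX-only distal peaks, 121 of 1800 (6.72%) had an XY peak within 1 kb, and their median gap was 52.6 kb. These gaps were partly fixed by the rule and are given without a test. Counting peaks up to 1 kb apart as shared left 691 members.

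**Figure D3:**
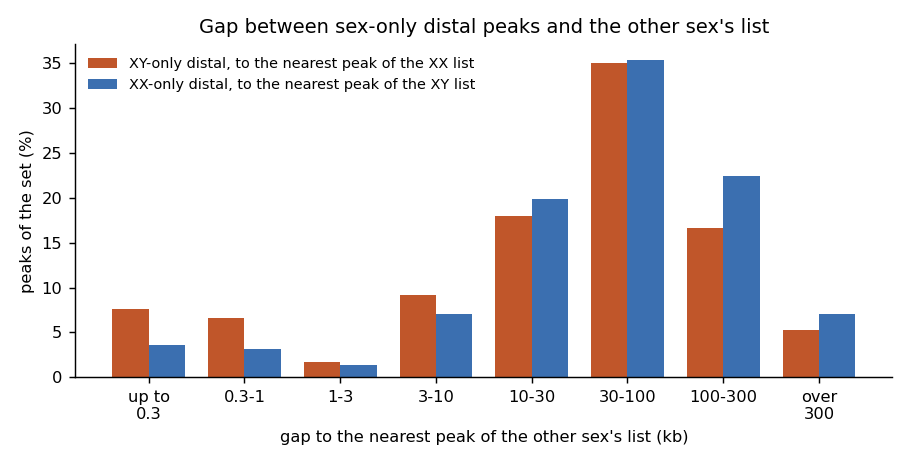
Share of peaks (%, vertical axis) by the gap to the nearest peak of the other sex's list (kb, horizontal axis, unequal classes) for XY-only and XX-only distal peaks. Among the members, 7.58% lie within 0.3 kb and 6.58% at 0.3 to 1 kb, the 1 to 3 kb class holds 1.74%, and the tallest bar, 35.0%, is at 30 to 100 kb.

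At the edges of the rule, the smallest gaps to an XX peak were 2 bp at Spdya, 5 bp at Mex3c and 8 bp at Actbl2. The smallest overlaps among the shared distal peaks left out were 6 bp at Hpgd, 7 bp at Slf2 and 8 bp at Mylk3. The members nearest to a gene end, at Bok, Dek and Purb, stood 1005, 1006 and 1010 bp from it, and XY-only peaks at Wdcp, Jarid2 and Mtfr1 were left out at 1000, 998 and 998 bp. The members farthest from a gene were 98.9 kb from Slc25a26, 97.9 kb from Spata18 and 96.9 kb from Actbl2. Sites at 101170 bp from Arntl and 101805 bp from Tcf21, a mesenchymal bHLH factor, were left out.

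Shared peaks were counted around male-only and female-only distal sites. The assigned gene also had a shared peak for 350 members (43.5%, 40 to 47.0) and for 845 XX-only distal peaks (46.9%, odds ratio 0.869, 0.733 to 1.03, adjusted p = 0.159 by Fisher's exact test). A shared peak within 1 kb of an end of that gene was present for 187 members (23.2%) and 24.8% of XX-only distal peaks (odds ratio 0.916, 0.749 to 1.12, adjusted p = 0.451 by Fisher's exact test). A shared peak lay within 50 kb of 339 members (42.1%) and of 39.2% of XX-only distal peaks (odds ratio 1.13, 0.948 to 1.34, adjusted p = 0.214 by Fisher's exact test). None of the 3 differences passed the threshold, which does not show that the sets are alike.

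Among the gene lists, growth factor genes of the IGF and EGF families had male-only distal sites at 7 of 24 genes (29.2%), against 3.62% of all autosomal protein-coding genes. XX-only distal peaks were at 2 of the 24 (8.33%, against 7.54%) and shared distal peaks at 4 (16.7%, against 8.56%). IGFs and EGF-like ligands are paracrine signals between mesenchyme and duct epithelium. This list was singled out after its count was seen, and lists were not tested. It had the highest share for the members among the 27 lists, and the 7 genes were also counted with peaks up to 1 kb apart taken as shared. The count was 5 for peaks over 2.5 kb or over 5 kb from gene ends and for genes within 10 kb.

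Among the ligands, Egf and Tgfa, both ligands of the EGF receptor, had 1 member each inside the gene, at chr3:129725033-129725332 and at chr6:86238961-86239260 (44.1 kb from the start). Nrg1, a ligand of the related ERBB receptors, had 1 inside its 1084 kb gene, 710 kb from the nearest XX peak. No XX peak was assigned to Egf, Tgfa, Nrg1 or Igfbp4. The nearest XX peak lay 106, 127, 710 and 16.3 kb from their members, in that order. The receptors were Insr, the insulin receptor, with 1 member inside the gene beside 1 shared peak, and Igf2r, which clears IGF2, with 1 member 10.6 kb upstream (chr17:12780192-12780491) and 1 shared peak. The binding proteins were Igfbp4, with a member 1.42 kb into the gene (chr11:99041277-99041576), and Igfbp5, with a member 40.1 kb upstream and 1 XX-only peak.

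Other signalling lists held fewer. Shares of the XX-only and shared distal sets given beside a list stand against 7.54% and 8.56% of all genes, and those of the members against 3.62%. FGF genes had members at 4 of 25 (16.0%): the ligand gene Fgf9, with a site inside the gene, the receptor gene Fgfr2, with a site 63.5 kb downstream, and the feedback inhibitors Spry2, 82.9 kb upstream, and Spry4, 10 kb outside. Of 17 hedgehog genes 2 did (11.8%). Gas1, a coreceptor, had sites 12.4 kb downstream and 90.3 kb upstream beside 3 shared peaks, and Ptch1, the receptor, had 1 site inside the gene, 32.7 kb from its start. BMP and TGF-beta genes had members at 3 of 49 (6.12%), namely the ligand gene Bmp4 (2.88 kb downstream), the receptor gene Acvr2b (inside, 1.11 kb from an XX peak) and the inhibitor Smad6 (57.1 kb downstream). For this list the XX-only and shared distal shares were 22.4% and 32.7%. WNT genes had members at 3 of 55 (5.45%), at the ligand gene Wnt7b, the receptor gene Fzd2 and Axin2, with 15 of 55 (27.3%) for XX-only and 8 of 55 for shared distal peaks. Notch genes had 2 of 23 (8.70%), the coactivator gene Maml3 and Rbpj, against 17.4% for XX-only and 21.7% for shared distal peaks. Cyp26b1, which degrades retinoic acid, was the 1 of 20 retinoic acid genes (5.0%), with a site inside the gene 57.0 kb from an XX peak. For this list the XX-only and shared distal shares were both 15.0%.

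Genes of duct identity and hormone action were counted against the 3.62% of all autosomal protein-coding genes. Wolffian duct genes with a member were Hoxb7, Krt8 and Fgfr2 (3 of 25, 12.0%), and Müllerian duct genes were Hoxa9 and Foxj1 (2 of 25, 8.0%). XX-only distal peaks were at 4 of the 25 Wolffian and 2 of the 25 Müllerian duct genes, and shared distal peaks at 6 and 5. The Wolffian count was thus the higher in each set of peaks, and not only among the members. The Hoxa9 site lay 1.26 kb downstream and the Foxj1 site, at a gene of ciliated cells, 11.5 kb outside. Of 25 genes of androgen and estrogen action, Hsd17b3, whose enzyme makes testosterone, was the only one (4.0%). Its site lay 77.7 kb downstream of the gene and 28.1 kb from an XX peak, though no XX peak was assigned to Hsd17b3. Both XX-only and shared distal peaks were at 4 of these 25 genes (16.0%).

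Mesenchymal factor genes had a member at 5 of 47 (10.6%), against 27.7% for XX-only and 36.2% for shared distal peaks. Among them were Meis1, Meis2, Zeb1 (a repressor of epithelial genes) and Ebf2. Adhesion genes had 5 of 36 (13.9%), with Itgb5 (an integrin), Tns3 and Lpp beside Dock1 and Tln2, against 30.6% and 44.4%. Matrix genes had 5 of 43 (11.6%): the collagen genes Col14a1, Col15a1 and Col26a1, the basement membrane gene Nid2 and the fibrillin gene Fbn2. The Col14a1 and Col15a1 sites lay inside the gene, and no XX peak was assigned to either gene. For matrix genes the XX-only and shared distal shares were 18.6% and 27.9%. Matrix protease genes had 3 of 31 (9.68%), Adamts2, Adamts6 and Adam12, all inside the gene, against 22.6% and 29.0%. Smooth muscle genes had 2 of 19 (10.5%), Synpo2 and Tpm1, against 21.1% for both XX-only and shared distal peaks. Guidance genes had 4 of 61 (6.56%), Sema3a, Nrp2, Epha2 and Ephb3, against 31.1% for XX-only and 21.3% for shared distal peaks. The Ephb3 site lay 0.041 kb from an XX peak, and the other guidance sites 76.7 to 302 kb.

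Among regulators of transcription, Zbtb and Bcl zinc finger genes had 5 of 32 (15.6%), the same count as for XX-only and shared distal peaks. They were Zbtb7c, Zbtb10, Zbtb16, Zbtb46 and Bcl11a. The Zbtb7c site lay 0.03 kb from an XX peak, and those at Zbtb10, Zbtb16 and Bcl11a 10.3 to 141 kb. Histone methylation enzymes had 5 of 45 (11.1%), among them Kdm2a, Kdm7a, Prdm1 and Prdm6, against 13.3% for XX-only and 24.4% for shared distal peaks. Nuclear receptor genes had 3 of 37 (8.11%), Nr4a3, Rora and Esrrg, all with the site inside the gene, against 27.0% for XX-only and 13.5% for shared distal peaks. Ribosomal protein genes had 2 of 58 (3.45%), Rpl38 and Rplp1, and cell cycle genes 0 of 37. The XX-only and shared distal shares were 3.45% and 8.62% for ribosomal protein genes and 5.41% and 16.2% for cell cycle genes.

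Markers of other cells that the dissected tissue could hold were counted in the same way. Gonadal somatic genes had 3 of 25 (12.0%), against 16.0% for XX-only and 4.0% for shared distal peaks. Over all autosomal protein-coding genes these shares were 3.62%, 7.54% and 8.56%. The 3 genes were Sox9, of Sertoli cells (20.9 kb outside the gene), Gata6 (4.01 kb outside) and Fgf9. The nearest XX peak lay 9.83, 157 and 95.2 kb from these sites, in that order. The steroidogenic list had Hsd17b3 alone (1 of 15, 6.67%), the germ cell list Kit (1 of 15), the endothelial list Vwf (1 of 20), the blood and immune list Ptprc and Mrc1 (2 of 20) and the neuronal list Snap25 (1 of 20). A peak near such a gene does not show which cells were bound, and the part of other cell types in the male list was not tested.

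Pooled over all lists, 73 of 808 autosomal genes (9.03%) had a member, against 3.62% of all genes. The corresponding shares were 18.7% against 7.54% for XX-only distal peaks and 20.4% against 8.56% for shared ones. In each of the 3 sets the share was higher for list genes than for all genes. The median gene length of a list ran from 3.25 kb (ribosomal proteins) to 108 kb (guidance), against 17.5 kb for all autosomal protein-coding genes, and the part of length in these counts was not tested.

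**Figure D4:**
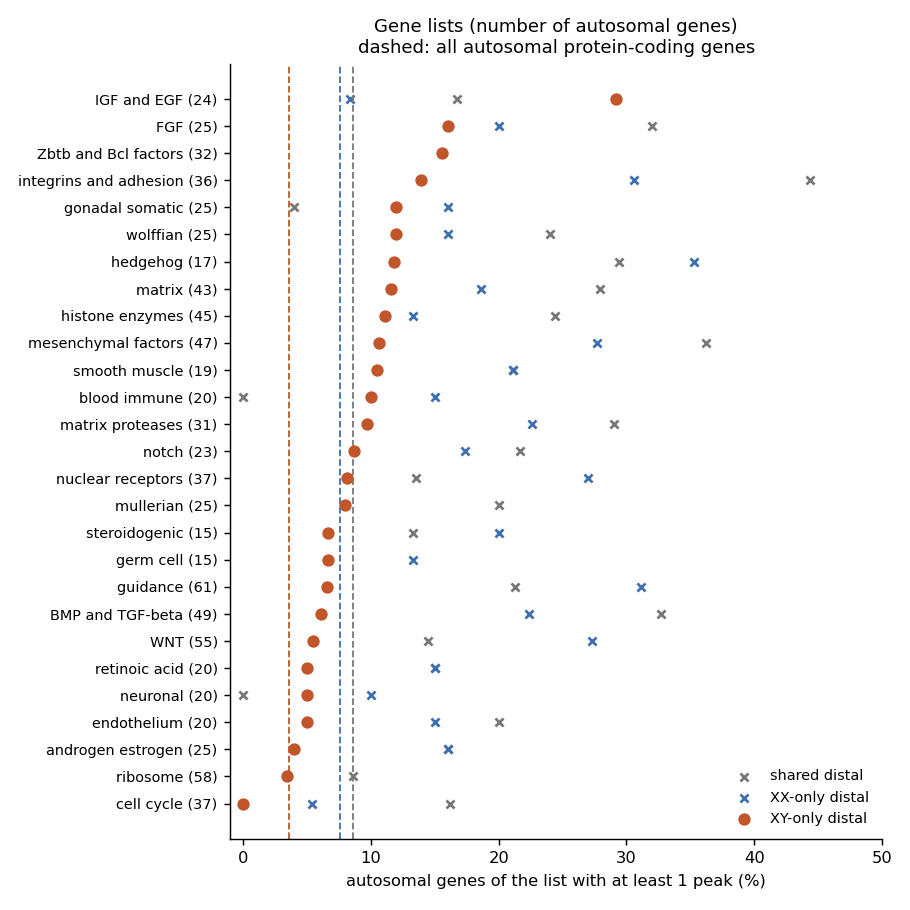
Share of autosomal genes with at least 1 distal peak (%, horizontal axis) for each gene list, with the number of autosomal genes in brackets, for XY-only (filled circles), XX-only and shared (crosses) distal peaks; dashed lines mark all autosomal protein-coding genes at 3.62%, 7.54% and 8.56%, and coinciding markers hide each other. The IGF and EGF list has the XY-only circle farthest to the right, at 29.2%, and the cell cycle list has it at 0.

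Over the 19 autosomes, 30.9% of the distal peaks found in 1 sex were XY-only (29.1 to 32.7). The share ran from 19.5% on chromosome 19 (16 of 82, 11.6 to 29.7) to 42.4% on chromosome 3 (56 XY-only and 76 XX-only peaks, 33.9 to 51.3). No autosome differed from the others after adjustment (lowest adjusted p = 0.0921, chromosome 3, two-sided Fisher's exact test with Benjamini-Hochberg adjustment over 19 autosomes), and at an unadjusted p under 0.05 there were 2, chromosomes 3 and 19. Chromosome 3, which holds Egf and Maml3, passed with peaks up to 1 kb apart taken as shared (42.0%, adjusted p = 0.0479 by Fisher's exact test) and over 2.5 kb or 5 kb from gene ends (43.8%, 0.0246, and 44.6%, 0.0396).

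**Figure D5:**
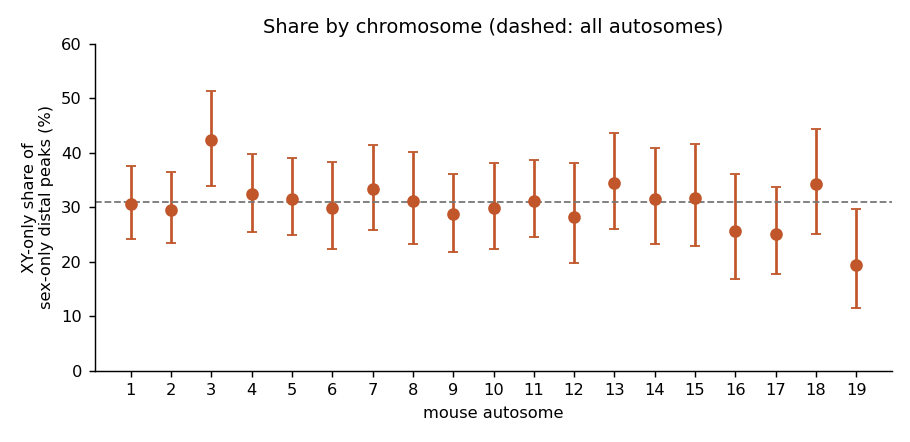
XY-only share of the sex-only distal peaks (%, vertical axis) on each mouse autosome (horizontal axis), where bars are exact 95% intervals over peaks and the dashed line is the share over all autosomes, 30.9%. Chromosome 3 is highest at 42.4% and chromosome 19 lowest at 19.5%, and the intervals of these are the only ones that do not include the line.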

How the data were processed

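COUP-TFII ChIP-seq of 2 XX and 2 XY samples was used as 1 deposited peak list per sex, and input was not used. Both files hold peak positions (mm10) in 3 columns with no other value. The tools HOMER 4.10.3, bedtools 2.24.0, Bowtie 1.2, cutadapt and Picard are named, with no role, per the submitters' processing notes. How replicates were combined, and at which threshold peaks were called, is not given in the sources used here. Depth is unknown.

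Coordinates are counted from 1. Peaks with at least 1 bp in common were called shared (checked with bedtools 2.31.1), and shared peaks were read in XX coordinates, except as the shared distal set, which has XY coordinates. Genes came from RefSeq (GRCm38.p6, 49997 genes, 21900 protein-coding). Each peak was given to the nearest protein-coding gene body, ties going to the nearer end. Strand and start windows came from a RefSeq table of 27025 genes, which held 584 of the 748 genes with a member. Exons, introns and the sequence of peaks elsewhere were not used here, so the planned motif tests over whole peaks were not run and motifs were counted in start windows.

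Shares have exact (Clopper-Pearson) 95% intervals, which cover counting error only. The 6 planned and 3 added Fisher's exact tests (scipy 1.17.1) were adjusted together, with a threshold of 0.05, and the functions were tested on simulated data. The members and the 27 gene lists were chosen with earlier results of these data known. Of the list genes, Zbtb47 was not matched to the gene table. Genes named by rule are those with 3 members. Also named are those with 2 members if no XX peak was assigned or the members lay within 10 kb of each other. The rule further names up to 6 genes per list and those at the thresholds of the selection. Others are named as examples, and a few genes that the rule names are not reported here. Sequences were chosen for the most complete overlap or for AGGTCA within the peak.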

Additional observations from a re-analysis of the deposited data

How the results depend on the processing

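Each result was recomputed with peaks counted as shared by 50% mutual overlap, by centres within 100 bp or by gaps up to 1 kb, other distances from gene ends (2.5 and 5 kb, or protein-coding ends only), genes within 10 kb or a wider limit than 100 kb, the sex chromosomes kept, and assignment by the nearest gene end. Overlap of at least 50 bp with a start window, and every alternative for start windows, noncoding genes and the IGF and EGF count, were added after the data had been seen. Of 122 recomputed values, 112 kept their direction and side of the threshold, or stayed within 1.5 times for counts. The number of members was 525 at over 5 kb from gene ends and otherwise 602 to 1047. The inside-gene odds ratio against XX-only distal peaks missed the threshold at 2.5 kb (1.24, adjusted p = 0.0789 by Fisher's exact test), at 5 kb (1.21, 0.163) and for genes within 10 kb (1.39, 0.0694), where fewer peaks were tested. The start-window odds ratio against shared peaks missed it at 5 kb (0.600, adjusted p = 0.0537 by Fisher's exact test). Differences that were not called turned direction for inside-gene share against shared peaks with gaps up to 1 kb shared (0.858) and for upstream share with genes within 10 kb (1.2), and the cause was not tested. The number of autosomes past the threshold was 1, chromosome 3, with gaps up to 1 kb shared and at 2.5 and 5 kb. No paired analysis was possible because each sex has 1 peak list over both replicates, and for the same reason no replicate could be left out. Without scores, no stricter peak threshold could be tried.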

Other observations

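The sex chromosomes stand outside the selection above. By the same position rules the X chromosome had 18 XY-only distal peaks and 49 XX-only ones, and the Y chromosome had 1, 9.49 kb from Uba1y. Those of the X chromosome included sites at Kdm6a, a histone demethylase gene, Usp9x, a deubiquitinase gene, Yipf6 and Shroom2, each inside the gene with an XX peak 0.041 to 0.610 kb away, and at Efnb1, an ephrin gene, 93.0 kb outside. The XY-only peak at Xiap, an inhibitor of apoptosis, lay inside the gene and 81.4 kb from an XX peak. These genes were named after their values were seen, and no test was made.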
